A study of Danio rerio with 24 samples.

Results

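The comparison described here set RA-treated against BMS493-treated endodermal cells of zebrafish embryos at the 8-somite stage (8-S). It rests on 6 of the 24 libraries of the series, chosen by their labels as the RA and the BMS493 libraries of that stage, with 3 libraries in each group. All embryos carried the Tg(sox17:GFP) transgene, in which the promoter of the endodermal gene sox17 drives green fluorescent protein, and GFP-positive cells were isolated by fluorescence activated cell sorting. One group came from embryos incubated with retinoic acid (RA), the natural ligand of the RA receptors, and the other from embryos incubated with BMS493, a synthetic retinoid that acts on every RAR subtype as an inverse agonist and keeps the receptors in a repressive state. Both treatments covered the blastula and gastrula periods and ended at the 3-somite stage (3-S), after which the embryos were washed and raised in medium without the compounds until 8-S. The rest of the series comprised the same groups at 3-S, DMSO-treated endodermal cells at both stages as the solvent control, and GFP-negative non-endodermal (NE) cells of the DMSO-treated embryos. Whole embryos were exposed, so the sorted cells had treated neighbours in every other tissue. The labels number 3 replicates in each group without saying that they came from separate clutches, and the p-values below therefore measure only the spread between these libraries.

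RA acts through heterodimers of RA receptors (RAR) and retinoid X receptors (RXR) that sit on DNA with or without ligand. With ligand they recruit coactivators, and without it, or with an inverse agonist, they hold corepressors. Enzymes that make, store and degrade RA shape a signal that is highest in the trunk, patterns hindbrain and endoderm along the anteroposterior axis, sets the expression of hox genes and is needed for pancreas specification. The comparison set cells of embryos treated with an agonist against cells of embryos treated with an inverse agonist. The cells compared were collected after the compounds had been washed out, and receptor activity in them was not measured.

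Between 14208751 and 17015070 reads were assigned to genes in the RA libraries and between 11968097 and 17806766 in the BMS493 libraries. A single gene, ENSDARG00000080337, took 15.5 to 32.6% of these counts in RA libraries and 18.5 to 25.9% in BMS493 libraries. In a principal component analysis of the 500 most variable genes over the 8-S endodermal libraries, the first component (56.3% of the variance) placed RA libraries at -36.6, -54.2 and -58.0, BMS493 libraries between 32.7 and 36.8, and DMSO libraries between 12.3 and 19.6. RA replicate 1 lay apart from the other RA libraries on the second component (10.7%), at 19.7 against -6.82 and -17.7. Without it 886 genes were called, against 967 with it, and 749 genes were called both ways. BMS493 replicate 3 also lay apart from the other BMS493 libraries on the second component, at 3.41 against -19.1 and -20.4. Without that library 852 genes were called, 745 of them among the 967. All values below are counts divided by DESeq2 size factors (normalised counts), given for replicates 1, 2 and 3 in that order.

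Endodermal marker genes were expressed in both groups. sox17 (ENSDARG00000041345), whose promoter drives the reporter, had 16398, 3029 and 3636 normalised counts in RA libraries and 4067, 6131 and 12969 in BMS493 libraries, against a mean of 51.5 in the 3 NE libraries. The RA and BMS493 ranges overlapped, with the highest value in RA replicate 1 and the lowest in RA replicate 2, and the gene was not called (log2 fold change -0.01, DESeq2 adjusted p 0.998). Of 8 pan-endodermal markers, gata6 rose with RA, and foxa1 and cxcr4a fell. The mean level was above that of NE cells for 7 of 8 markers in RA cells, the exception being cxcr4a (47.0 in RA against 247 in NE cells), and for 7 of 8 in BMS493 cells, the exception being gata6 (117 in BMS493 against 122 in NE cells). The summed level of the 8 markers ran from 13876 to 27225 in RA libraries and from 18339 to 29724 in BMS493 libraries. In bulk RNA of this kind, fewer cells of a type and less RNA per cell cannot be told apart.

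Of 18495 genes tested, 967 (5.23%) differed between RA and BMS493 cells at 8-S at a DESeq2 adjusted p under 0.01, the threshold for every call below. RA cells had the higher level for 495 genes (2.68%) and the lower level for 472 (2.55%). The median size of the difference was 2.7 on the log2 scale among the genes that rose with RA and 2.5 among those that fell. A difference of at least 4-fold was fitted for 338 genes that rose and 310 that fell, and one of at least 16-fold for 122 and 99. For 487 of 495 genes that rose and 468 of 472 that fell, the 3 RA and 3 BMS493 values did not overlap, which held for 19.1% of all genes tested. edgeR's quasi-likelihood test called 618 of 16800 genes (3.68%), with 310 higher and 308 lower in RA cells, and all 618 were among the 967.

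**Figure D1:**
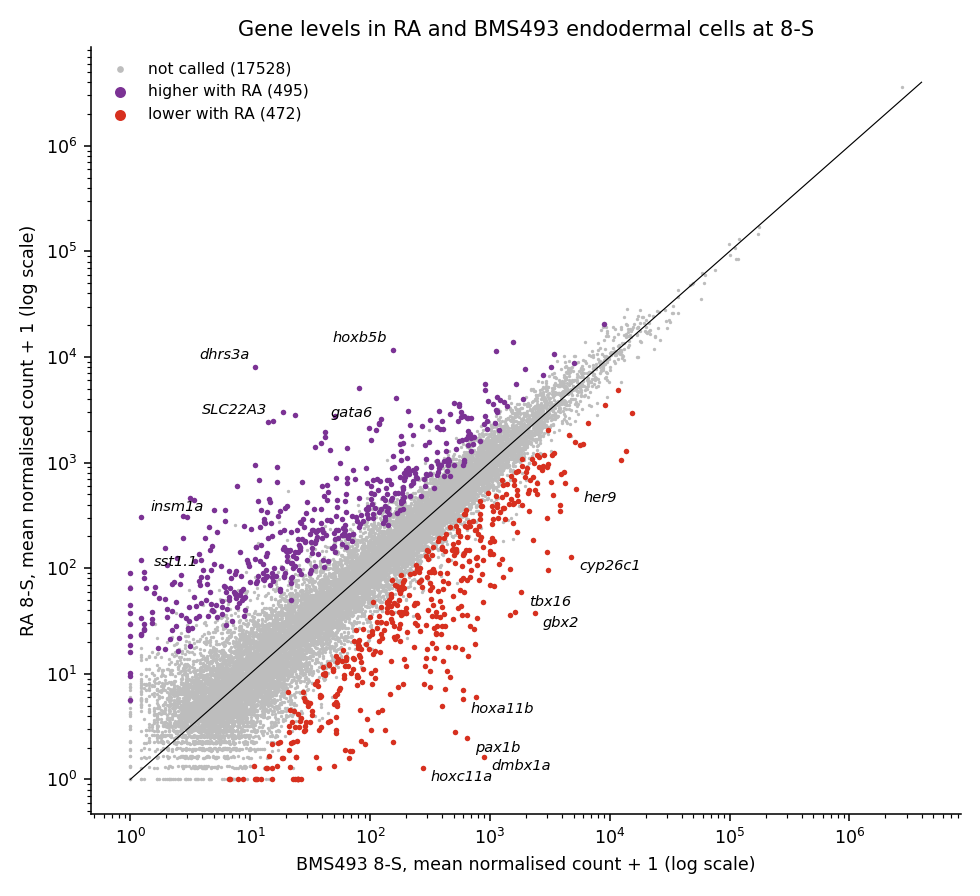
Mean normalised count plus 1 of each tested gene in the 3 RA libraries at 8-S (vertical, log scale) and in the 3 BMS493 libraries at 8-S (horizontal, log scale). Purple points are the 495 genes called higher with RA, red points the 472 called lower, grey points genes that were not called, and the line marks equal levels; dhrs3a and hoxb5b lie far above the line and cyp26c1 and gbx2 far below it.

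The 12 largest rises by fitted fold change included the endocrine factor genes insm1a, rfx6 and ascl1b and the RA enzyme gene dhrs3a. They were taken only from called genes whose RA and BMS493 values did not overlap, so that separation was required by the choice. insm1a (ENSDARG00000091756), a zinc finger factor of endocrine differentiation, had 176, 403 and 342 normalised counts in RA libraries against 0, 0 and 0.662 in BMS493 libraries. It was at least 116-fold higher with RA (DESeq2 adjusted p 4.07e-13). The genes dhrs3a, rfx6 and ascl1b are described below, as is nr6a1b, and ehf, sst1.1 and enpep were also among the 12. ehf (ENSDARG00000052115), an ETS factor of epithelia, had 16.3, 65.4 and 188 against 0, 0 and 0 and was at least 33.9-fold higher with RA (DESeq2 adjusted p 6.42e-08). sst1.1 (ENSDARG00000040799), which encodes the hormone somatostatin, had 66.0, 76.3 and 132 in RA libraries against 0, 0.910 and 0 in BMS493 libraries. The gene was at least 34.5-fold higher with RA (DESeq2 adjusted p 5.01e-07). enpep (ENSDARG00000057064), which encodes a brush border aminopeptidase, had 55.5, 268 and 616 against 0, 4.55 and 0.662 (log2 fold change 7.49, SE 1.43, DESeq2 adjusted p 7.29e-06), with RA replicate 1 the lowest of the RA libraries.

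The 12 largest falls, for which separate groups were required in the same way, were dominated by transcription factors of the head and pharynx and by posterior hox genes. dmbx1a (ENSDARG00000009922), a homeobox gene of the anterior embryo, had 1.91, 0 and 0 normalised counts in RA libraries against 1141, 819 and 707 in BMS493 libraries, and was at least 316-fold lower with RA (DESeq2 adjusted p 5.79e-20). The RA libraries were at or next to 0, and no BMS493 library was near them. hoxc11a (ENSDARG00000070351) had 0, 0 and 0.869 against 315, 259 and 253, and was at least 97.8-fold lower with RA (DESeq2 adjusted p 9.92e-12). The others were pax1b, pax9, gsc, tbx1, otx1a, hoxa11b, hoxd11a, hoxd12a, VGLL3 and si:dkeyp-74f1.2 (ENSDARG00000097512). VGLL3 (ENSDARG00000038305), named after the human cofactor of TEAD transcription factors, had 0, 0 and 3.48 against 35.6, 166 and 67.5 (log2 fold change -6.20, SE 0.98, DESeq2 adjusted p 2.41e-08).

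The enzymes and binding proteins that set RA levels were themselves changed, in both directions. Of 15 tested genes of RA metabolism and binding, 6 rose with RA and 2 fell, with a median log2 fold change of 1.58, against 0.00 over all genes tested. The paper had named dhrs3a, cyp26a1 and cyp26b1 as regulated by RA in this series, so the count is not wholly independent evidence of direction. dhrs3a (ENSDARG00000044982), a reductase that turns retinaldehyde back into retinol and so limits RA synthesis, had 7675, 7417 and 9041 normalised counts in RA libraries against 9.70, 14.6 and 5.96 in BMS493 libraries. The groups were far apart (log2 fold change 9.66, SE 0.50, DESeq2 adjusted p 1.58e-80), and DMSO libraries were between them at 1221, 866 and 882. dhrs3b (ENSDARG00000044803), its paralogue, had 4229, 5748 and 4621 against 799.5, 635 and 1321 (log2 fold change 2.4, SE 0.33, DESeq2 adjusted p 1.87e-11), a far smaller separation. lrata (ENSDARG00000037278), which esterifies retinol for storage, had 747, 2654 and 5610 against 6.46, 13.7 and 33.8. Its RA values differed several fold among themselves, and all lay above the BMS493 values (log2 fold change 7.36, SE 0.63, DESeq2 adjusted p 4.26e-28).

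The 3 cyp26 genes, whose products degrade RA, moved in opposite directions. cyp26a1 (ENSDARG00000033999) had 7791, 14055 and 19853 normalised counts in RA libraries against 1569, 1951 and 1154 in BMS493 libraries (log2 fold change 3.16, SE 0.36, DESeq2 adjusted p 7.80e-16). DMSO libraries, at 1219, 2359 and 1101, overlapped the BMS493 values. cyp26b1 (ENSDARG00000077121) had 362, 1662 and 2084 against 45.2, 93.7 and 51.0 (log2 fold change 4.43, SE 0.66, DESeq2 adjusted p 1.53e-09), again with the lowest RA value in replicate 1. cyp26c1 (ENSDARG00000056029) went the other way, with 199, 91.2 and 93.9 against 6937, 4252 and 3138 (log2 fold change -5.22, SE 0.61, DESeq2 adjusted p 2.65e-15). Its RA values lay far below its BMS493 values, and the DMSO libraries, at 2539, 7362 and 4780, overlapped the BMS493 values. crabp2a (ENSDARG00000040923), which carries RA inside the cell, had 2182, 606 and 648 against 18.3, 180.2 and 265 and rose (log2 fold change 2.89, SE 0.72, DESeq2 adjusted p 0.00166). It was no longer called without RA replicate 1 (adjusted p 0.101) or without BMS493 replicate 1 (adjusted p 0.0181) in DESeq2.

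Of the enzymes upstream of RA, rdh10a (ENSDARG00000058730), which oxidises retinol to retinaldehyde, had 191, 85.3 and 75.6 normalised counts in RA libraries against 438, 475 and 424 in BMS493 libraries, and fell (log2 fold change -1.93, SE 0.33, DESeq2 adjusted p 2.37e-07). aldh1a2 (ENSDARG00000053493), which makes RA from retinaldehyde and is a marker of paraxial mesoderm, had 217, 644 and 271 against 139, 129 and 110.5. Its groups did not overlap, but the test did not call it (log2 fold change 1.58, SE 0.47, DESeq2 adjusted p 0.0142). It was called without RA replicate 1 (DESeq2 adjusted p 0.00586).

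**Figure D2:**
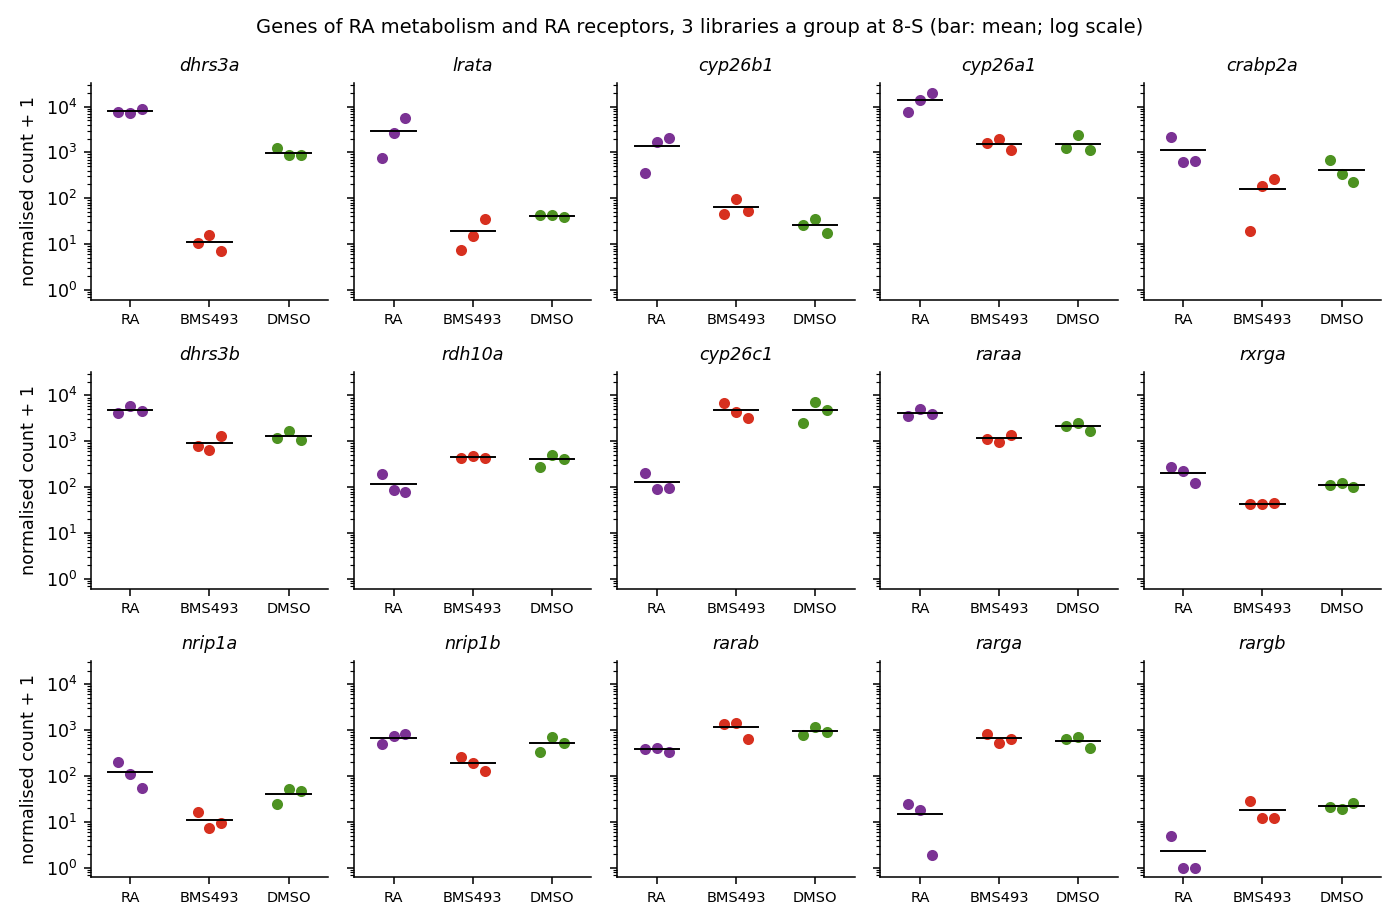
Normalised count plus 1 (log scale) in each library at 8-S, replicates 1 to 3 from left to right, for genes of RA metabolism and for RA receptors and their cofactors, with RA in purple, BMS493 in red and DMSO in green; the black line is the mean of the 3 libraries. Only called genes are drawn, a choice that favours separate groups, and the called RXRA gene is left out. RA and BMS493 points are apart for every gene drawn. RA is above for dhrs3a, lrata, cyp26b1, cyp26a1, crabp2a, dhrs3b, raraa, rxrga, nrip1a and nrip1b and below for rdh10a, cyp26c1, rarab, rarga and rargb.

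The receptors split by gene rather than moving together. Of 17 tested receptors and cofactors, 4 rose with RA and 4 fell, with a median log2 fold change of -0.20. raraa (ENSDARG00000056783), an RA receptor alpha gene, had 3627, 5047 and 3922 normalised counts in RA libraries against 1125, 967 and 1354 in BMS493 libraries, and rose (log2 fold change 1.87, SE 0.28, DESeq2 adjusted p 1.64e-09). Its paralogue rarab (ENSDARG00000034893) had 396, 403 and 334 against 1361, 1430 and 651, and fell (log2 fold change -1.60, SE 0.34, DESeq2 adjusted p 0.000102). The alpha paralogues thus differed in opposite directions in the same libraries. Both RA receptor gamma genes fell. rarga (ENSDARG00000034117) had 23.9, 16.9 and 0.869 against 832, 523 and 627 (log2 fold change -5.58, SE 0.71, DESeq2 adjusted p 6.69e-13), so that little of it remained in any RA library. rargb (ENSDARG00000054003) was low in both groups, at 3.83, 0 and 0 against 28.01, 10.9 and 11.2 (log2 fold change -3.72, SE 1.04, DESeq2 adjusted p 0.00682). Its DESeq2 adjusted p was 0.0469 without RA replicate 2, 0.0623 without RA replicate 3 and 0.0705 without BMS493 replicate 1. Without RA replicate 1 it was at least 5.99-fold lower with RA (DESeq2 adjusted p 0.00165).

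Among the partners of the RA receptors, rxrga (ENSDARG00000005593) had 267, 226 and 121 normalised counts in RA libraries against 40.9, 41.0 and 43.7 in BMS493 libraries, and rose (log2 fold change 2.29, SE 0.45, DESeq2 adjusted p 1.51e-05). One gene carrying the human-style symbol RXRA (ENSDARG00000057737) had 102, 117 and 56.5 against 394, 400.4 and 229, and fell (log2 fold change -1.89, SE 0.37, DESeq2 adjusted p 1.17e-05). In neither gene did the groups overlap. nrip1a (ENSDARG00000068965), which encodes a corepressor that binds nuclear receptors carrying their ligand, had 198, 112 and 54.8 against 15.08, 6.37 and 8.60, and rose (log2 fold change 3.62, SE 0.57, DESeq2 adjusted p 2.32e-08). nrip1b (ENSDARG00000068894) had 501, 742 and 806 against 253, 190.2 and 128, and rose as well (log2 fold change 1.85, SE 0.30, DESeq2 adjusted p 8.77e-08).

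Several COUP-TF nuclear receptors, which have no identified natural ligand and can bind the same DNA elements as RAR, were higher in RA cells. Of 7 tested genes of this group and of the related nr6a1 genes, 4 rose and none fell, with a median log2 fold change of 2.09. The study had picked 3 of these rises, nr2f1a, nr2f5 and nr6a1b, from this series at 3-S or 8-S. They were picked for a level above DMSO with RA and below it with BMS493, so their direction is not independent evidence. Of the other 4 tested genes, 1 rose and none fell, with a median of 1.26. They included nr2f2, which the paper had also named as regulated by RA in this series. nr2f1a (ENSDARG00000052695) had 2031, 2651 and 3039 normalised counts in RA libraries against 127, 107 and 131 in BMS493 libraries (log2 fold change 4.40, SE 0.36, DESeq2 adjusted p 7.12e-31), with DMSO libraries between them at 627, 933 and 625. nr2f5 (ENSDARG00000033172) had 1150, 2611 and 2514 against 454, 373 and 316 (log2 fold change 2.46, SE 0.33, DESeq2 adjusted p 5.48e-12), and nr2f2 (ENSDARG00000040926) was nearer to equality (log2 fold change 2.09). nr6a1b (ENSDARG00000014480), an orphan receptor outside the COUP-TF family, had 120.5, 87.3 and 33.9 against 0, 0.910 and 0 and was at least 30.4-fold higher with RA (DESeq2 adjusted p 1.11e-06).

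The hox genes divided by their position in the clusters. Hox genes are numbered by paralogue group from the anterior to the posterior end of the body axis on which they act. Of 24 tested genes of groups 1 to 8, 16 rose with RA and 2 fell, with a median log2 fold change of 2.73. Of 17 tested genes of groups 9 to 13, none rose and 10 fell. The median was -4.56, or -2.96 with genes near 0 counts in RA cells set at their bound. All 10 falls were in groups 10 to 13, and none of the 5 tested genes of group 9 was called. Clusters were grouped by letter, so that duplicated zebrafish clusters such as hoxba and hoxbb were pooled. By letter, the falls of groups 9 to 13 were 4 of 6 tested genes in hoxa, 0 of 2 in hoxb, 2 of 4 in hoxc and 4 of 5 in hoxd. The pooled hoxb genes carried most of the rises, with 11 of 12 tested genes of groups 1 to 8, against 3 of 4 in hoxa, 2 of 6 in hoxc and 0 of 2 in hoxd.

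hoxb5b (ENSDARG00000054030) had the smallest adjusted p of the hox genes, with 12917, 8721 and 13162 normalised counts in RA libraries against 167, 139 and 154 in BMS493 libraries (log2 fold change 6.24, SE 0.27, DESeq2 adjusted p 1.34e-110). Its DMSO values, at 1034, 1038 and 809, were nearer on the log scale to those with BMS493. hoxa3a (ENSDARG00000036231) followed with 4201, 4318 and 6605 against 83.0, 78.2 and 76.8 (log2 fold change 5.99, SE 0.33, DESeq2 adjusted p 2.27e-69). hoxa1a (ENSDARG00000057721) was detected in RA libraries at 45.0, 33.7 and 52.2 and in no BMS493 library, and was at least 16.5-fold higher with RA (DESeq2 adjusted p 8.67e-08). The hoxb1 paralogues were well expressed in both groups and still differed. hoxb1b (ENSDARG00000054033) had 7881, 3427 and 5371 against 1065, 835 and 821 (log2 fold change 2.62, SE 0.29, DESeq2 adjusted p 6.11e-17), and hoxb1a (ENSDARG00000008174) a log2 fold change of 2.63. Both falls in groups 1 to 8 were at genes that were lower with RA and with BMS493 than in DMSO libraries. hoxa2b (ENSDARG00000023031) had 11.5, 6.94 and 12.2 against 32.3, 67.3 and 43.7, and 124, 68.9 and 87.3 with DMSO (log2 fold change -2.22, SE 0.42, DESeq2 adjusted p 5.39e-06 for RA against BMS493). hoxd3a (ENSDARG00000059280) had 117, 33.7 and 93.9 against 279, 309 and 300.5, and 379, 408 and 320.1 with DMSO (log2 fold change -1.86, SE 0.37, DESeq2 adjusted p 1.83e-05).

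In the posterior groups the loss was close to complete for several genes. hoxa11b (ENSDARG00000007009) had 11.5, 1.98 and 0.869 normalised counts in RA libraries against 606, 761 and 415 in BMS493 libraries (log2 fold change -6.97, SE 0.64, DESeq2 adjusted p 7.25e-25). hoxd11a (ENSDARG00000059267) had 17.2, 0.992 and 0 against 602, 706 and 497 (log2 fold change -6.65, SE 0.60, DESeq2 adjusted p 2.70e-25), and hoxd12a (ENSDARG00000059263) had 3.83, 0 and 0 against 108, 244 and 116 (log2 fold change -6.96, SE 0.93, DESeq2 adjusted p 1.10e-11). What remained with RA was mostly in replicate 1. hoxa13b (ENSDARG00000036254) showed this most clearly, with 87.0, 0 and 1.74 against 192, 260.2 and 256 (log2 fold change -3.0, SE 0.80, DESeq2 adjusted p 0.0039). Without RA replicate 1 it was at least 84.6-fold lower with RA, and its DESeq2 adjusted p was 0.0108 to 0.0243 when any one of the other 5 libraries was left out. Without the same library hoxd11a was at least 216-fold lower with RA. In that fit 14 of the 17 posterior genes were called lower and none higher, with a median log2 fold change of -7.01, or -5.80 with the 9 genes near 0 counts in RA cells set at their bound.

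Of 11 tested hox cofactors and neighbours, 4 rose with RA and none fell, with a median of 0.70. skap1 (ENSDARG00000001498), an adaptor protein gene listed with these genes as a neighbour of the hoxbb cluster, had 395, 676 and 964 normalised counts in RA libraries against 15.08, 10.01 and 7.28 in BMS493 libraries (log2 fold change 6.01, SE 0.44, DESeq2 adjusted p 3.30e-39). tshz1 (ENSDARG00000005026), a zinc finger factor of trunk identity, had 1012, 1463 and 2058 against 273, 136 and 128 (log2 fold change 3.09, SE 0.33, DESeq2 adjusted p 3.10e-18). meis4.1a (ENSDARG00000002937), a homeobox cofactor of Hox proteins, rose by 2.53 on the log2 scale. RA and BMS493 values did not overlap in any of these 3 genes.

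**Figure D3:**
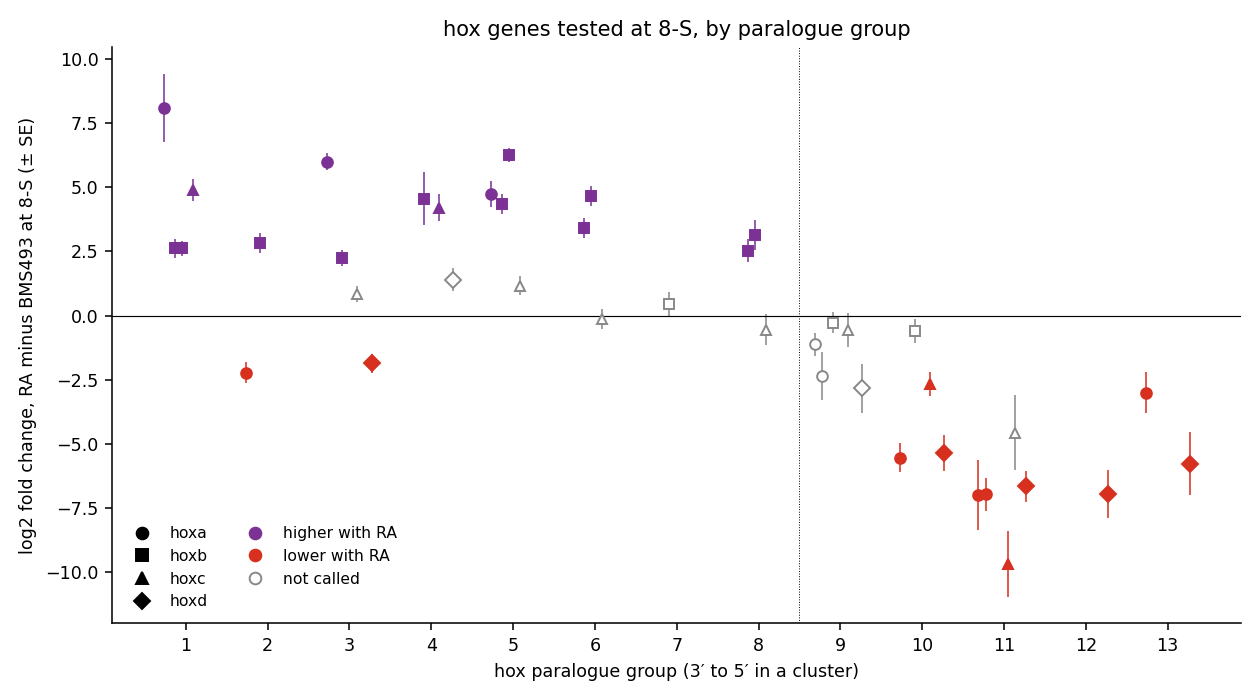
Log2 fold change, RA minus BMS493 at 8-S, of each tested hox gene (vertical) by its paralogue group (horizontal), with the marker shape giving the cluster letter (duplicated clusters pooled) and bars giving the standard error. Filled purple markers are called higher with RA, filled red markers called lower and open markers not called; all rises lie in groups 1 to 8 and all falls but 2 in groups 9 to 13, on the right of the dotted line.

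Regulators of pancreas and endocrine cells that changed were higher with RA, apart from isl1 and jag1b. Of 31 tested genes, 15 rose and 2 fell, with a median log2 fold change of 1.99, or 1.38 with genes near 0 counts in BMS493 cells set at their bound. A fit of only the 6 libraries called 14 higher and 5 lower, and total-count size factors 14 higher and 4 lower. At 3-S 19 genes of the list were called higher and 6 lower. pdx1 (ENSDARG00000002779), the homeobox gene of the pancreatic and duodenal field, had 179.8, 273 and 1328 normalised counts in RA libraries against 9.70, 5.46 and 5.29 in BMS493 libraries (log2 fold change 6.46, SE 0.73, DESeq2 adjusted p 1.73e-16). Its BMS493 libraries were under 10 counts each, while DMSO libraries, at 399, 213 and 229, overlapped the RA values. rfx6 (ENSDARG00000041702), a winged helix factor of endocrine cells, had 67.0, 78.3 and 46.1 against 1.08, 0 and 0, and was at least 24.1-fold higher with RA (DESeq2 adjusted p 1.34e-05). ascl1b (ENSDARG00000009702), a proneural factor needed for the first endocrine precursors of zebrafish, had 2980, 3039 and 1174 against 14.01, 0 and 25.1 (log2 fold change 7.49, SE 0.62, DESeq2 adjusted p 4.13e-30). DMSO libraries lay between the groups for ascl1b, at 892, 497 and 477. Its paralogue ascl1a (ENSDARG00000038386) moved the same way (log2 fold change 6.08).

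Broader regulators of the foregut rose by smaller factors. gata6 (ENSDARG00000035831), a zinc finger factor of early endoderm, had 1477, 3202 and 2207 normalised counts in RA libraries against 179.9, 69.2 and 102 in BMS493 libraries (log2 fold change 4.30, SE 0.50, DESeq2 adjusted p 3.44e-15). hnf1ba (ENSDARG00000006615), a homeobox factor of foregut and pancreas progenitors, had 3913, 3967 and 3661 against 1014, 994 and 897 (log2 fold change 1.99, SE 0.24, DESeq2 adjusted p 5.37e-14), with little spread in either group. hnf4a (ENSDARG00000021494) and nr5a2 (ENSDARG00000042556), nuclear receptor genes shared by liver and pancreas, rose by 2.49 and 2.36 on the log2 scale. neurod (ENSDARG00000019566), a proneural factor of endocrine cells and neurons, had 105, 446 and 618 against 0, 3.64 and 54.3 (log2 fold change 4.32, SE 1.09, DESeq2 adjusted p 0.00178), with BMS493 replicate 3 well above the other BMS493 libraries. Its log2 fold change was 7.67 without that library, and its DESeq2 adjusted p was 0.0155 without RA replicate 2, 0.0351 without RA replicate 3 and 0.0179 without BMS493 replicate 2. mnx1 (ENSDARG00000035984), a homeobox gene of the beta cell lineage and motor neurons, was not called (log2 fold change 0.58, SE 0.29, DESeq2 adjusted p 0.271), with 716, 727 and 604 against 375, 399.5 and 595.

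The 2 falls were isl1 (ENSDARG00000004023) and jag1b (ENSDARG00000013168). isl1, a LIM homeobox gene of endocrine cells that is also used in neurons, heart and pharyngeal endoderm, had 563, 259.8 and 214 normalised counts in RA libraries against 3104, 3487 and 4971 in BMS493 libraries (log2 fold change -3.48, SE 0.36, DESeq2 adjusted p 9.21e-20). jag1b, a Notch ligand, had 51.6, 39.7 and 32.2 against 593, 466 and 556 (log2 fold change -3.71, SE 0.34, DESeq2 adjusted p 2.25e-25). The related ligand jag2b (ENSDARG00000021389) moved in the opposite direction, with 371, 873 and 811 against 132, 199 and 98.6 (log2 fold change 2.26, SE 0.40, DESeq2 adjusted p 7.26e-07). For all 3 genes the groups were apart.

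Most genes of the list headed gut and liver epithelium were higher with RA. The heading is a label for the list, and the tissue of each member was not tested. Of 26 tested, 19 rose with RA and none fell, with a median log2 fold change of 5.35, or 4.64 with genes near 0 counts set at their bound. Of these rises, 11 were of genes that the study had picked from the libraries of this series, lgals2b at 3-S and SLC22A3, masp1, slc13a2, cldn15a, cldnc, cldn2, ezra, tmem30c, epb41l4a and hmga2 at 8-S, for a level above DMSO with RA and below it with BMS493. The count over the list is therefore not independent evidence of its direction. Of the other 15 genes, a split made after the values were seen, 8 rose and none fell, with a median log2 fold change of 2.67. The same choice had taken in dhrs3a, nrip1a, nr2f1a, nr2f5, nr6a1b, hoxa3a, hoxb1b, hoxb5b, hoxb6b, hoxc1a, skap1, tshz1, insm1a, ascl1a, ascl1b and gata6 of the lists above. Without the genes so chosen, 11 of 19 tested genes of hox groups 1 to 8 rose and 2 fell. Among the pancreatic and endocrine regulators 11 of 27 rose and 2 fell, and among the hox cofactors and neighbours 2 of 9 rose. Among genes of RA metabolism and binding 5 of 14 rose and 2 fell, and among receptors and cofactors 3 of 16 rose and 4 fell. Some genes left in these counts were also named by the paper from this series. Among them, hnf1ba and nr5a2 were named as induced by RA, and pdx1 and rfx6 as inhibited by BMS493. The paper also named cyp26a1 and cyp26b1 as regulated by RA. These counts are therefore not wholly independent evidence of direction either. SLC22A3 (ENSDARG00000058775), named after the human organic cation transporter, had 2556, 2402 and 2394 normalised counts in RA libraries against 6.46, 24.6 and 12.6 in BMS493 libraries (log2 fold change 7.39, SE 0.47, DESeq2 adjusted p 6.32e-52). The RA values were close to each other, and DMSO libraries were between the groups at 624, 301 and 429. masp1 (ENSDARG00000068726), a protease gene of the lectin complement pathway, had 644, 236 and 453 against 1.08, 0.910 and 5.29 (log2 fold change 7.4, SE 0.81, DESeq2 adjusted p 1.65e-17).

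The 3 tight junction claudins of this list were all among the genes so chosen, which fixed their direction and the place of DMSO between the groups. cldn15a (ENSDARG00000036463), a claudin of the zebrafish gut, had 665, 2138 and 3018 normalised counts in RA libraries against 63.6, 31.9 and 29.1 in BMS493 libraries (log2 fold change 5.56, SE 0.51, DESeq2 adjusted p 4.00e-25). cldnc (ENSDARG00000015955) had 1862, 2028 and 4337 against 65.7, 48.2 and 35.1 (log2 fold change 5.79, SE 0.53, DESeq2 adjusted p 7.25e-25). cldn2 (ENSDARG00000044387) had 168, 301 and 585 against 5.39, 0 and 6.62 (log2 fold change 6.42, SE 0.65, DESeq2 adjusted p 1.60e-20). Transporter and peptidase genes of the list rose as well. slc13a2 (ENSDARG00000053853), a dicarboxylate transporter gene, changed by 6.58 and slc7a9 (ENSDARG00000005894), an amino acid transporter gene, by 5.61 on the log2 scale. anpepb (ENSDARG00000075168), an aminopeptidase gene, had 57.4, 21.8 and 117 against 0, 1.82 and 0, and was at least 24.7-fold higher with RA (DESeq2 adjusted p 4.18e-06). cebpa (ENSDARG00000036074), a leucine zipper factor of liver cells, had 1481, 2094 and 2811 against 93.7, 48.2 and 152 (log2 fold change 4.44, SE 0.52, DESeq2 adjusted p 3.14e-15).

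Most genes of the list headed anterior and pharyngeal endoderm were lower with RA. The heading is a label for the list, which also holds head and brain genes such as otx2 and gbx2. The tissue of each member was not tested. Of 31 tested, 24 fell and 7 were not called. The median log2 fold change was -4.64, or -4.11 with genes near 0 counts set at their bound. Of the 24 falls, 12 were of genes higher in DMSO endodermal than in NE cells. The paper had named some members, tbx1 and nkx2.7 among them, as lowered by RA in this series. The count is therefore not wholly independent evidence of direction. pax1b (ENSDARG00000073814) and pax9 (ENSDARG00000053829), paired box genes of the pharyngeal pouches, were close to absent with RA. pax1b had 0, 0 and 4.35 normalised counts in RA libraries against 627, 509 and 810.1 in BMS493 libraries (log2 fold change -8.72, SE 0.75, DESeq2 adjusted p 5.71e-28). pax9 had 0.956, 0.992 and 3.48 against 262, 518 and 748 (log2 fold change -8.10, SE 0.78, DESeq2 adjusted p 2.35e-22). gsc (ENSDARG00000059073), a homeobox gene of the prechordal and anterior region, had 1.91, 7.93 and 5.22 against 623, 459.5 and 1208 (log2 fold change -7.25, SE 0.60, DESeq2 adjusted p 2.19e-30). Again no RA library approached a BMS493 library. gbx2 (ENSDARG00000002933), a homeobox gene best known at the border of midbrain and hindbrain, had 42.1, 33.7 and 33.0 against 2212, 2358 and 2552 (log2 fold change -6.03, SE 0.35, DESeq2 adjusted p 1.46e-63), with little spread within either group.

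The otx homeobox genes of the head fell together. otx2 (ENSDARG00000011235) had 7.65, 2.98 and 7.82 normalised counts in RA libraries against 408, 302 and 547 in BMS493 libraries (log2 fold change -6.08, SE 0.56, DESeq2 adjusted p 6.91e-25), and otx1a (ENSDARG00000030703) had 0, 3.97 and 7.82 against 394, 299 and 496 (log2 fold change -6.63, SE 0.60, DESeq2 adjusted p 8.08e-26). otx1b (ENSDARG00000094992) had 0, 0.992 and 0 against 67.9, 59.1 and 19.2, and was at least 17.3-fold lower with RA (DESeq2 adjusted p 9.37e-06). The T-box gene tbx1, a regulator of pharyngeal development, is carried by 2 gene IDs, and both fell. The first (ENSDARG00000031891) had 65.0, 10.9 and 6.96 against 314, 164 and 1583 (log2 fold change -4.64, SE 1.04, DESeq2 adjusted p 0.000296), with BMS493 replicate 3 far above the others, and was not called without that library (DESeq2 adjusted p 0.0524). The second (ENSDARG00000097046) had 0.956, 0 and 0.869 against 49.6, 81.9 and 64.9, and was at least 23.2-fold lower with RA (DESeq2 adjusted p 1.49e-06).

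Further falls included genes of the pharyngeal pouch network. eya1 (ENSDARG00000014259), a cofactor of sine oculis homeobox proteins, had 83.2, 75.4 and 68.7 normalised counts in RA libraries against 724, 779.8 and 909 in BMS493 libraries (log2 fold change -3.41, SE 0.35, DESeq2 adjusted p 3.73e-20). six1b (ENSDARG00000026473) had 26.8, 7.93 and 15.7 against 520.4, 398 and 413 (log2 fold change -4.72, SE 0.46, DESeq2 adjusted p 6.39e-22). fgf3 (ENSDARG00000068094), a ligand needed for pouch formation, had 27.7, 4.96 and 0 against 377, 319 and 169 (log2 fold change -4.74, SE 0.62, DESeq2 adjusted p 3.05e-12). The RA and BMS493 values of all 3 genes were separate. nkx2.7 (ENSDARG00000021232), a homeobox gene of pharyngeal endoderm, changed by -2.77 on the log2 scale.

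**Figure D4:**
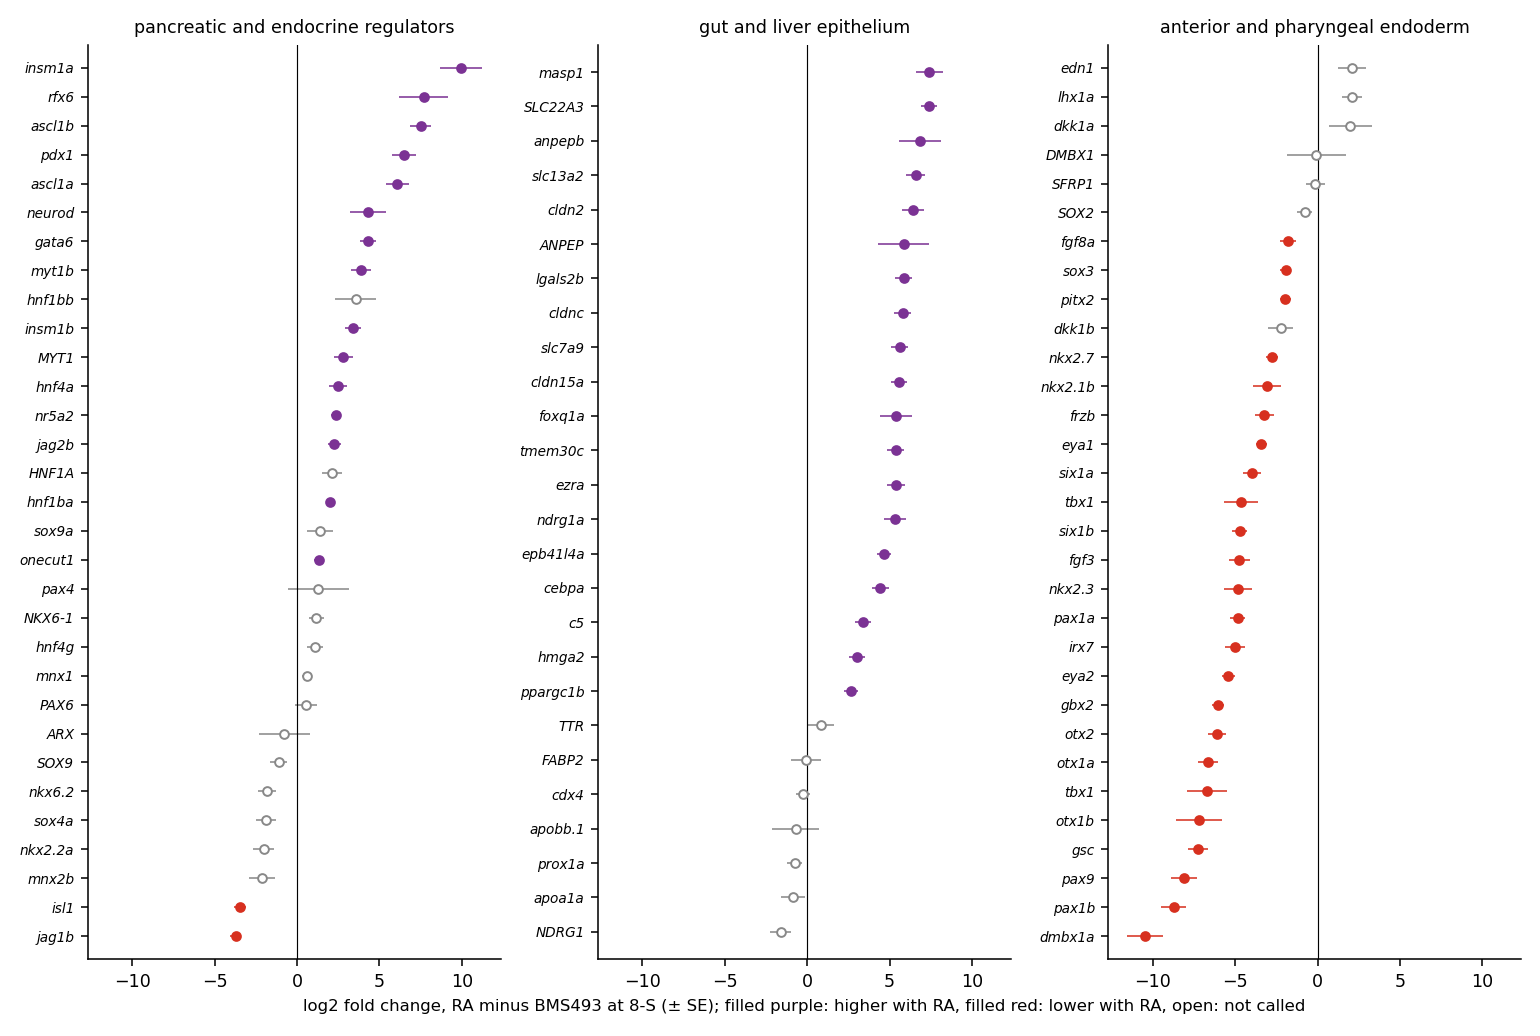
Log2 fold change, RA minus BMS493 at 8-S, with its standard error for each tested gene of 3 lists, sorted within a list. Filled purple points are called higher with RA, filled red points called lower, and open points not called. In the pancreatic and endocrine list 15 of 31 genes are called higher, and in the gut and liver list 19 of 26. Of these 19, 11 are genes that the study had picked for this direction. In the anterior and pharyngeal list 24 of 31 genes are called lower.

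Most genes of the tailbud also fell, together with some markers of mesoderm. Of 15 tested tailbud and posterior genes, 10 fell and none rose, with a median log2 fold change of -2.28. With 1 library left out, 8 to 11 fell and none rose. The summed level of the list was 15695 in RA replicate 1, against 5896 and 5199 in RA replicates 2 and 3. In BMS493 libraries it was 20446 to 22029. tbx16 (ENSDARG00000007329), a T-box gene of mesoderm formation, had 87.0, 51.6 and 35.6 normalised counts in RA libraries against 2239, 2403 and 851 in BMS493 libraries (log2 fold change -4.98, SE 0.37, DESeq2 adjusted p 4.72e-37). msgn1 (ENSDARG00000070546), a factor of presomitic mesoderm, had 55.5, 28.8 and 28.7 against 1577, 2717 and 594 (log2 fold change -5.44, SE 0.51, DESeq2 adjusted p 1.79e-23). ntla (ENSDARG00000009905), the zebrafish Brachyury gene of notochord and tailbud, had 249.6, 228 and 68.7 against 2307, 1870 and 2675 (log2 fold change -3.65, SE 0.48, DESeq2 adjusted p 4.58e-12). In each the BMS493 values were several fold above every RA value. The segmentation clock genes her1 (ENSDARG00000014722) and her7 (ENSDARG00000017917) changed by -5.09 and -4.93 on the log2 scale.

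Of the 10 tailbud genes that fell, tbx16 and msgn1 are also paraxial mesoderm markers, and ntla and flh (ENSDARG00000021201) notochord markers. Of 9 tested paraxial mesoderm markers, 2 fell and none rose, and the summed level of the list was 572.9 to 844.8 in RA libraries against 2212 to 5442 in BMS493 libraries. The 2 falls were tbx16 and msgn1, which made up most of the sum in every BMS493 library. The difference in sums therefore does not describe the other markers of the list, none of which was called. Of 5 notochord markers, 3 fell and none rose, with sums of 277.3 to 731.8 against 2538 to 3489. Most of the notochord sum in every BMS493 library was ntla. No marker of either list was at 0 in all libraries of a group. The part of these cell types in the fall of the tailbud genes was not tested.

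Among markers of other cell types, calls went in both directions. Of 10 tested neural markers, 1 rose and 2 fell, with sums of 2676 to 5309 in RA libraries against 6050 to 10733 in BMS493 libraries. Most of the sum in every BMS493 library was sox3. sox3 (ENSDARG00000053569), a SoxB1 gene that is also in the pharyngeal list, had 1859, 948 and 1607 against 4262, 4536 and 8177 (log2 fold change -1.94, SE 0.35, DESeq2 adjusted p 1.65e-06). neurog1 (ENSDARG00000056130), a proneural gene, had 70.8, 198 and 226 against 7.54, 0.910 and 25.8 and rose (log2 fold change 3.81, SE 0.69, DESeq2 adjusted p 1.57e-06). Of 2 tested heart field markers, hand2 (ENSDARG00000008305), a factor of heart and lateral plate mesoderm, rose, with 2093, 1406 and 1387 against 46.3, 25.5 and 230.3 (log2 fold change 4.01, SE 0.51, DESeq2 adjusted p 6.73e-13). nkx2.5 (ENSDARG00000018004), an early heart field gene that pharyngeal endoderm can also express, fell, with 3.83, 0 and 2.61 against 6.46, 19.1 and 47.6 (log2 fold change -3.52, SE 0.81, DESeq2 adjusted p 0.000442), though not without BMS493 replicate 3 (DESeq2 adjusted p 0.0276). The single tested marker of Kupffer's vesicle, dand5 (ENSDARG00000036471), a Nodal antagonist, fell, with 4.78, 16.9 and 3.48 against 537, 88.3 and 765 (log2 fold change -5.80, SE 0.76, DESeq2 adjusted p 2.62e-12).

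Of 8 tested markers of blood and endothelium, 1 fell, and of 7 epidermal markers 1 fell, with none higher in either list. The summed levels were 1533 to 3422 in RA libraries against 3120 to 5707 in BMS493 libraries for blood and endothelium, and 19654 to 30950 against 24157 to 46989 for epidermis. The blood marker hbbe3 was at 0 in all BMS493 libraries, and the neural crest marker FOXD3 in all RA and BMS493 libraries. No marker of germ cells, hatching gland or neural crest was called, of 3, 4 and 3 tested. Whether differences in the makeup of the sorted cells contributed to the calls was not tested.

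Genes listed under signalling pathways changed gene by gene. The headings are labels for the lists, and the dependence of each member on its pathway was not tested. Of 18 tested Notch pathway genes, 4 rose with RA and 3 fell, with a median log2 fold change of 0.51. The delta ligand gene dlb (ENSDARG00000004232) had 93.7, 217 and 227 normalised counts in RA libraries against 33.4, 19.1 and 30.4 in BMS493 libraries, and rose (log2 fold change 2.7, SE 0.44, DESeq2 adjusted p 5.73e-08). her9 (ENSDARG00000056438), a Hairy-related repressor, had 463, 569 and 662 against 4958, 4262 and 6384, and fell (log2 fold change -3.20, SE 0.43, DESeq2 adjusted p 1.94e-11). Every RA library was several fold below every BMS493 library.

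Of 23 tested Wnt pathway genes, 2 rose and 8 fell, with a median log2 fold change of -0.72. fzd8b (ENSDARG00000038569), a Wnt receptor gene, had 57.4, 34.7 and 13.04 normalised counts in RA libraries against 586, 546 and 813 in BMS493 libraries (log2 fold change -4.21, SE 0.50, DESeq2 adjusted p 5.86e-15). frzb (ENSDARG00000018383), a secreted Wnt antagonist gene, fell by 3.24 on the log2 scale. wnt4a (ENSDARG00000071208), a ligand gene, had 39.2, 28.8 and 51.3 against 4.31, 4.55 and 7.28 and rose (log2 fold change 2.85, SE 0.53, DESeq2 adjusted p 4.70e-06), as did sfrp5 (ENSDARG00000039041), another secreted antagonist gene of foregut endoderm (log2 fold change 3.00).

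Of 15 tested FGF pathway genes, 1 rose and 6 fell, with a median log2 fold change of -0.64. fgf4 (ENSDARG00000068095), a ligand gene, had 1.91, 3.97 and 0 normalised counts in RA libraries against 191, 122 and 84.1 in BMS493 libraries (log2 fold change -6.12, SE 0.72, DESeq2 adjusted p 5.82e-15). etv4 (ENSDARG00000018303), a target of FGF signalling, had 374, 594 and 378 against 1292, 1406 and 1841 (log2 fold change -1.75, SE 0.36, DESeq2 adjusted p 3.29e-05). In both genes every RA library was below every BMS493 library. Of 25 tested BMP and Nodal pathway genes, 1 rose and 9 fell, with a median of -0.82. bmp5 (ENSDARG00000004965), a ligand gene, was at least 10.97-fold higher with RA (DESeq2 adjusted p 0.000209), with 36.3, 24.8 and 26.1 against 0, 0.910 and 0.662. lft1 (ENSDARG00000019920), a feedback antagonist of Nodal, had 18.2, 28.8 and 8.69 against 402, 352 and 223 (log2 fold change -4.14, SE 0.74, DESeq2 adjusted p 1.43e-06).

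The DMSO libraries of the same stage show on which side of the solvent control each group lay. Of the 495 genes that rose, the DMSO values lay between the groups and apart from both for 167 (33.7%), were apart from the RA values only for 185 (37.4%) and apart from the BMS493 values only for 89 (18%). Of the 472 that fell, these counts were 86 (18.2%), 317 (67.2%) and 31. Over all genes tested the corresponding shares were 1.7%, 12.4% and 6.75%. A place between the groups requires RA and BMS493 values that do not overlap. That held for nearly all called genes but for 19.1% of all genes tested. The shares over all genes are therefore not a like background for the called genes. In hox groups 9 to 13, DMSO values were apart from RA only for 9 of 10 falls, and likewise for 9 of 10 tailbud falls and 18 of 24 anterior and pharyngeal falls. In hox groups 1 to 8, DMSO lay between the groups for 10 of 16 rises, in the pancreatic list for 9 of 15, and in the gut and liver list for 14 of 19. Genes picked by the study at 8-S were chosen for this order, and without them these counts were 6 of 12, 8 of 14 and 4 of 9. A further 5 pancreatic rises, with insm1a, rfx6 and pdx1 among them, and 4 gut and liver rises had DMSO values apart from BMS493 only.

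Endodermal enrichment was measured in libraries outside the comparison, as DMSO endodermal against NE cells at 8-S. There, 4.4% of the tested genes were higher in endodermal cells and 2.78% lower. Of the genes that rose with RA, 99 of 495 (20%) were higher in endodermal cells and 51 (10.3%) lower. Of those that fell, 138 of 472 (29.2%) were higher and 42 (8.9%) lower. Both contrasts came from the same fit, which shares the estimate of each gene's spread. Called genes exceeded the shares over all genes in both directions, so those shares are not a like background for them. The gut and liver list had 11 endoderm-enriched genes among its 19 rises, the pancreatic list 8 among 15, and the anterior and pharyngeal list 12 among 24 falls. No gene of hox groups 9 to 13 that fell was endoderm-enriched, and 4 of the 16 rises of hox groups 1 to 8 were.

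The 3-S libraries, collected at the end of the treatment, gave the same contrast in other libraries. There 1096 of 19056 tested genes (5.75%) were called, 561 higher (2.94%) and 535 lower (2.81%) with RA. Of the 495 genes that rose at 8-S, 491 had a positive log2 fold change at 3-S and 347 (70.1%) were called higher, which is 347 of the 561 rises at 3-S. Of the 472 that fell at 8-S, 468 had a negative one and 329 (69.7%) were called lower, of 535 falls at 3-S. No gene was called in opposite directions at the stages. dhrs3a changed by 9.66 at 8-S and 9.34 at 3-S on the log2 scale, hoxb5b by 6.24 and 6.36, pdx1 by 6.46 and 4.34, gbx2 by -6.03 and -7.12, and isl1 by -3.48 and -3.80.

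**Figure D5:**
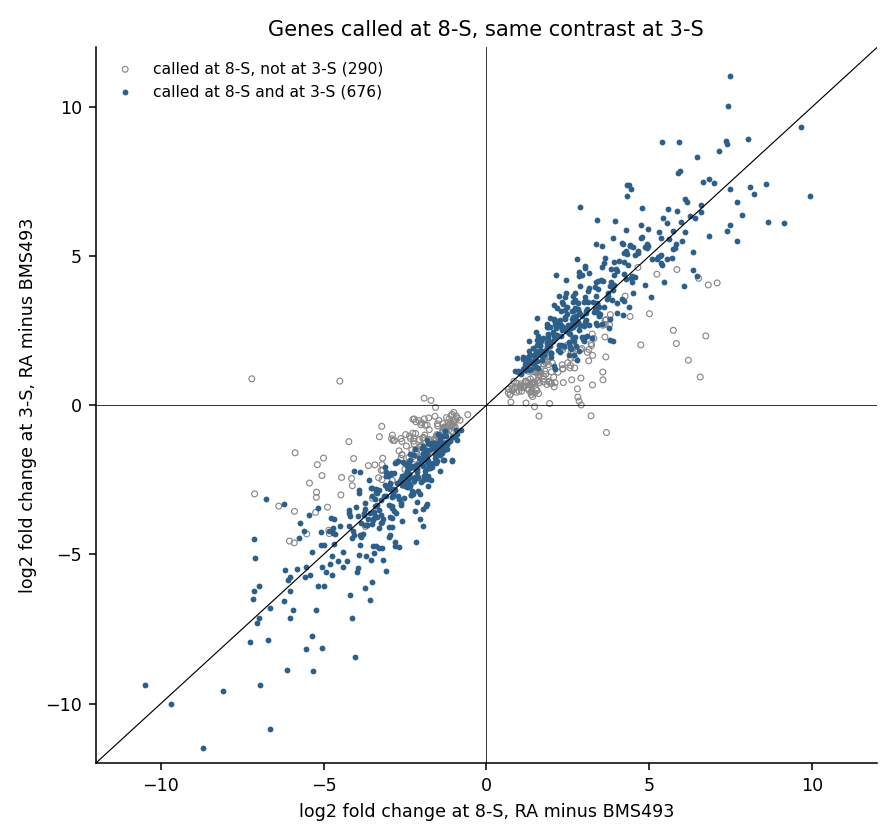
Log2 fold change, RA minus BMS493, at 8-S (horizontal) and at 3-S (vertical) for 966 of the 967 genes called at 8-S, with filled points for the 676 also called at 3-S and open points for the 290 that were not; the diagonal marks equal differences and 1 gene, cldn26, lies beyond the axes. Nearly all points fall in the quadrants of equal sign.

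The difference between stages was itself tested and called for 0 of 29144 genes by DESeq2 and for 0 by edgeR, with 709 genes at an unadjusted p under 0.05 in DESeq2. The smallest adjusted p was 0.158. The 5 genes with the smallest p were cldn26, map6a, capn1a, has2 and eng2a. cldn26 (ENSDARG00000076137), a claudin gene, had 0, 0 and 13.9 normalised counts in RA libraries at 8-S and 0, 0 and 0 in BMS493 libraries. Its call at 8-S rests on RA replicate 3 alone, without which the log2 fold change was 0.00. has2 (ENSDARG00000036987), which encodes a hyaluronan synthase, had 4.78, 10.9 and 9.56 against 60.3, 89.2 and 84.1 at 8-S (log2 fold change -3.21, SE 0.48, DESeq2 adjusted p 1.53e-09), and a log2 fold change of -0.70 at 3-S. eng2a (ENSDARG00000026599), a homeobox gene of the midbrain and hindbrain border, had 0, 0 and 0 against 32.3, 30.9 and 13.2 at 8-S and was at least 9.05-fold lower with RA (DESeq2 adjusted p 2.88e-05). Without RA replicate 3 of 8-S, 1 gene was called for the difference between stages, and without RA replicate 2 of 3-S, 2 genes.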

How the data were processed

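RNA-seq libraries were made from sorted cells by poly(A)-primed cDNA synthesis and Nextera XT tagmentation, a protocol that does not mark strand. The values used are the deposited raw counts of reads per gene, which the authors obtained with STAR 2.5.4 on the zebrafish Zv9 assembly, and the unstranded column was taken. Summary lines that name no gene were left out. Reads of overlapping or antisense genes cannot be told apart in these counts. The authors did not deposit normalised values in these files.

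All 24 libraries (8 groups of 3) were fitted together in DESeq2 1.42.0 (R 4.3.3) on treatment group alone, with size factors from the median of ratios and the tool's default filters. Contrasts were tested with two-sided Wald tests, unshrunken log2 fold changes and Benjamini-Hochberg adjusted p-values over all genes tested, with a call at an adjusted p under 0.01. Contrasts were RA minus BMS493 at 8-S and at 3-S, the difference between these, and DMSO endodermal minus NE cells at 8-S. The edgeR 4.0.16 quasi-likelihood test was an alternative, and the others covered the libraries in the fit, size factors, count filters, strand columns, the most abundant gene, the threshold, a replicate block and leaving out each library. On data simulated for the RA against BMS493 contrast at 8-S (33737 genes, 100 raised and 100 lowered 4-fold), DESeq2 called 73 and 65 of these and 13 unchanged genes, and edgeR 47, 43 and 1. The 13 are a larger share of the DESeq2 calls than the threshold of 0.01 aims at. The changed genes were drawn from genes above a minimum mean level, so the recovery does not cover genes at low counts.

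Where all 3 libraries of a group had 3 counts or fewer, a fold was given as a lower bound against 3 counts per library. At these depths 3 counts are 1.76e-05 to 2.11e-05% of an RA library and 1.69e-05 to 2.51e-05% of a BMS493 library, a limit that covers counting error only. Genes were named from the study's supplementary gene lists (3110 IDs, names only) or the reference symbol table (19479 IDs), of 33737 IDs. Planned list names that matched no symbol were left out, so some lists are incomplete. Matches were 15 of 25 names in the tailbud list, 33 of 41 in the anterior and pharyngeal list and 2 of 4 for Kupffer's vesicle. Other lists, such as that of COUP-TF and related receptors (8 of 8), were matched in full. Named genes were the 12 largest rises and falls among called genes with a symbol, no overlap between groups and a mean of at least 50 in the higher group, together with called members of the lists, members with a described role that were not called, cell type markers and the 5 genes with the smallest p for the difference between stages. The comparison, lists, markers and named genes were chosen with earlier results of these data known. 1 gene of the anterior and pharyngeal list is not reported here and was left out of that list's counts. No sequences are shown, as none were used here.

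Replicate numbers did not pair RA with BMS493 libraries at 8-S (correlation of deviations from the group means -0.09, -0.132 and -0.0379 over 12443 genes). They did pair DMSO with NE libraries (0.226, 0.22 and 0.371), where the blocked fit called 1395 genes and the unblocked fit 1328. No pair of replicates was close enough to be a library deposited in duplicate (chi-square per degree of freedom of at least 17.5 in the 8 groups, and at least 98.4 in the RA and BMS493 groups at 8-S).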

Additional observations from a re-analysis of the deposited data

How the results depend on the processing

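The RA against BMS493 count at 8-S was 967, and was 618 with edgeR, 615 with edgeR without the most abundant gene and 1544 at an adjusted p under 0.05. Leaving out 1 library gave 709 (without RA replicate 3) to 886 (without RA replicate 1), with 661 and 749 of these among the 967. With the replicate block, 989 genes were called, 917 of them among the 967, and no RA library correlated best with the BMS493 library of its own number. The 3-S count of 1096 was 697 with edgeR and 770 to 1012 with 1 library left out, and the difference between stages 0 to 2. For DMSO against NE cells the count of 1328 was 775 with edgeR, 2155 at an adjusted p under 0.05 and 815 (without DMSO replicate 2) to 1218 with 1 library left out. It was 867 without NE replicate 3. Total-count scaling shifted the median gene by -0.130 (log2) and called 419 genes higher and 547 lower with RA. The causes were not tested.

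Of 108 named and called genes, 99 kept their call and direction under every alternative in which they were tested. Many were named for large changes between separate groups, so this share does not carry over to all calls. edgeR kept 104 of the 108, against 618 of all 967 calls, and lost hoxa13b, crabp2a, rargb and cldn26. A fit of only the 6 libraries tested 106 of the 108 genes, kept 100 and lost nkx2.5, neurod, cyp1a, crabp2a, rargb and fgf3. The block lost the call of rargb alone. sox17, not called in any fit, changed sign, to 0.04 with edgeR without the most abundant gene, 0.37 without RA replicate 2, 0.33 without RA replicate 3 and 0.59 without BMS493 replicate 3. Its range with 1 library left out was -1.21 to 0.59, and that of cldn26 was 0.00 (without RA replicate 3) to 19.91.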

Other observations

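Called genes of the claudin and sine oculis homeobox families all lay on one side. The families described here were chosen after their values were seen and share members with the lists above, so their counts are a description. They were taken by the start of the gene symbol, so their tested counts and medians can include genes outside a family. Of 27 tested claudin genes, whose products form tight junctions, 7 were higher with RA and none lower, with a median log2 fold change of 0.83, against 0.00 over all genes tested. Besides cldn15a, cldnc and cldn2, which the study had picked for this direction, cldnd (ENSDARG00000006580) had 291, 114 and 252 normalised counts in RA libraries against 25.9, 14.6 and 9.93 in BMS493 libraries (log2 fold change 3.73, SE 0.53, DESeq2 adjusted p 1.91e-10), and cldn29 (ENSDARG00000009215) had 171, 89.2 and 174 against 22.6, 16.4 and 17.9 (log2 fold change 2.94, SE 0.50, DESeq2 adjusted p 3.09e-07). One of the 7 is cldn26, whose call rests on 1 library. Of 11 tested sine oculis homeobox genes, 7 were lower with RA and none higher, with a median of -3.94. six3b (ENSDARG00000054879), a gene of the forebrain and eye field, had 20.1, 3.97 and 15.7 against 292, 278 and 457 (log2 fold change -4.69, SE 0.56, DESeq2 adjusted p 1.57e-14), and six7 (ENSDARG00000070107) had 7.65, 2.98 and 10.4 against 329, 257 and 263 (log2 fold change -5.31, SE 0.52, DESeq2 adjusted p 6.76e-22). The groups did not overlap in these 4 genes.

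Of 17 tested Eph receptor genes, 5 fell and 1 rose, with a median of -1.10, and of 14 tested protocadherin genes, 5 fell and 1 rose, with a median of -0.04. epha4a (ENSDARG00000054454) had 85.1, 92.2 and 66.9 normalised counts in RA libraries against 1263, 1777 and 835 in BMS493 libraries (log2 fold change -3.99, SE 0.31, DESeq2 adjusted p 1.68e-35). pcdh10a (ENSDARG00000054274) and pcdh10b (ENSDARG00000036121), which are paralogues, went in opposite directions, and pcdh10a was another gene picked by the study for a rise with RA. pcdh10a had 780.4, 2442 and 2055 against 61.4, 36.4 and 25.8 (log2 fold change 5.43, SE 0.51, DESeq2 adjusted p 1.31e-23), and pcdh10b had 172, 94.2 and 61.7 against 1272, 1464 and 843 (log2 fold change -3.45, SE 0.43, DESeq2 adjusted p 1.30e-13). Of 45 tested cytochrome P450 genes other than cyp26, 7 rose and 1 fell, with a median of 0.08. cyp1a (ENSDARG00000026039), an enzyme gene known as a target of the aryl hydrocarbon receptor, was among the rises. It had 192, 771 and 839 against 1.08, 93.7 and 21.2, and 33.2, 14.5 and 58.2 with DMSO (log2 fold change 3.96, SE 0.74, DESeq2 adjusted p 4.46e-06). Of 45 tested forkhead genes, 3 rose and 8 fell, with a median of -0.18. The median of the protocadherin, cytochrome P450 and forkhead families lay near that of all genes.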
